A study of Mus musculus with 8 samples.

Results

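The peaks described here are the sites at which an antibody against PEG3 enriched DNA in wild-type and in Peg3 knockout mouse embryonic fibroblasts, in chromatin immunoprecipitation followed by sequencing. Every row of the 2 PEG3 antibody peak tables was taken, 152 peaks from the wild-type library and 163 from the knockout library, which makes 315 of the 581 peaks in the 4 tables of the series. A peak was shared if it overlapped a peak of the other genotype by at least 1 bp, and was otherwise listed in its own genotype alone. The series holds 8 samples in all. They are 1 PEG3 and 1 H3K9me3 immunoprecipitation of each genotype, each with an input, and for a given genotype both inputs come from the same raw reads. All cells were embryonic fibroblasts of strain C57BL/6, taken from embryos of 14.5 days post coitum. The groups compared are wild type with the PEG3 antibody and Peg3 knockout with the same antibody, 1 library each. The sources used here give neither the form of the knockout allele, nor the number of embryos behind a library, nor their sex.

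Peg3, paternally expressed gene 3, is an imprinted gene that is transcribed from the copy inherited from the father. Its product is a large protein with many zinc fingers of the C2H2 type, which binds DNA and is known mainly as a repressor of transcription. Mice that lack it have been studied for growth and maternal behaviour. Where the protein is absent, a PEG3 antibody can enrich DNA only through something other than PEG3, and the knockout list is set beside the wild-type list for this reason. Absence of the protein in the knockout cells was not tested here. The 2 libraries also differ in depth and in the scaling of their input, so the knockout list is not a matched background.

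Since each genotype has 1 library, the spread between replicates is not known and no test was made. The wild-type library kept 21396407 tags after duplicates were removed and the knockout library 16986250, and their inputs 24305045 and 26470256. Height is the number of fragments over a peak's summit per 10000000 kept tags of its library, so that 1 fragment is worth 0.467 in wild type and 0.589 in knockout. Ratios are knockout over wild type. Intervals are 95% intervals that cover counting error for heights and ratios, exact Clopper-Pearson limits for shares of listed peaks, and order statistics for medians. Those for shares and medians treat listed peaks as independent, although some are close neighbours. Peaks of 1 library are not replicates, so whether such intervals overlap does not measure a difference between genotypes. A site that is not in a table has no height. The lowest listed peak had 11 fragments in wild type (height 5.14) and 9 in knockout (height 5.30). Marker genes do not verify the cell type here, since a peak is not a transcript. Of 17 fibroblast genes and of 21 markers of other cell types, 0 had a peak within 10 kb in either list.

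Of the 40 wild-type peaks within 1 kb of a transcription start, 27 were listed in wild type alone. Of all 148 wild-type peaks with a start to measure from, 88 were. Whether the wild-type split near starts differs from that of the whole list was not tested. The knockout list had 17 peaks within 1 kb of a start, 3 of them in knockout alone. Of all 158 knockout peaks with a start to measure from, 95 were in knockout alone. Sequences at such starts are shown first. They are the 250 bases before a RefSeq transcription start (GRCm38.p6, the mm10 build) that a peak covered by at least 100 bases. For shared peaks and for peaks of wild type alone the 3 with the most fragments are given, and for knockout alone the only one. Each runs 5′ to 3′ along the gene. Capitals mark TGGCT, which is the last part of a motif described earlier for PEG3, the CCAAT box (CCAAT) and the GC box (GGGCGG), each searched on both strands. TGGCT and the reverse of CCAAT can overlap, as at the last capitals of Pdk2.
Gpx8, chr13:113046389-113046638, - strand: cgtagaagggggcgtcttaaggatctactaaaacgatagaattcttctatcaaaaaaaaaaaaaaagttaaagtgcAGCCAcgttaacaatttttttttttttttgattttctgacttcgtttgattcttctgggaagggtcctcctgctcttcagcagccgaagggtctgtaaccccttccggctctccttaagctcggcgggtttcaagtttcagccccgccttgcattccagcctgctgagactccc
Prdm11, chr2:93046166-93046415, - strand: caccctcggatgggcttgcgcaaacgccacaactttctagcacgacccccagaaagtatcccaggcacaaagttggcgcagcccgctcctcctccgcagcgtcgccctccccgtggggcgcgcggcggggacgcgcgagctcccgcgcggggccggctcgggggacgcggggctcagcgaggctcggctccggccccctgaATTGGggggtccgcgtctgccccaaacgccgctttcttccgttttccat
Pgk1, chrX:106186850-106187099, + strand: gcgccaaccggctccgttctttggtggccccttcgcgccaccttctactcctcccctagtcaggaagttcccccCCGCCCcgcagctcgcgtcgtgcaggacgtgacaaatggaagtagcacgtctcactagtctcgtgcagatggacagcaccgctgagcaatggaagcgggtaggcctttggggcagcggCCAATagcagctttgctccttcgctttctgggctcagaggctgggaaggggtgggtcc
Pdk2, chr11:95041372-95041621, - strand: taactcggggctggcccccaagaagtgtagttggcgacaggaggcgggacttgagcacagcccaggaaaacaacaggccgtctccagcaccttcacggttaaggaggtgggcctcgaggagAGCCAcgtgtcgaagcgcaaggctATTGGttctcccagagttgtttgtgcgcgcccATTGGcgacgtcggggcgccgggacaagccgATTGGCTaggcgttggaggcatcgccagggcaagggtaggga
Sfxn5, chr6:85333423-85333672, - strand: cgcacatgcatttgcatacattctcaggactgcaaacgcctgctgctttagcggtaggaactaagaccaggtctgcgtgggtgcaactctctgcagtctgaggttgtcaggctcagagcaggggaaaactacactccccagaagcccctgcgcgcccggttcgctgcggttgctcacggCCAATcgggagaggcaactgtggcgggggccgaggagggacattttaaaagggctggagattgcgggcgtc
Rin1, chr19:5050565-5050814, + strand: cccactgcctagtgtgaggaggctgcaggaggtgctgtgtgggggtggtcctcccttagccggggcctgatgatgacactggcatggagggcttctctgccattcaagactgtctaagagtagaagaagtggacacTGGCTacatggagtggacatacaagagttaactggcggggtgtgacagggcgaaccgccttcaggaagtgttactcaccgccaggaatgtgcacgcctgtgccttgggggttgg
Dclre1a, chr19:56548223-56548472, - strand: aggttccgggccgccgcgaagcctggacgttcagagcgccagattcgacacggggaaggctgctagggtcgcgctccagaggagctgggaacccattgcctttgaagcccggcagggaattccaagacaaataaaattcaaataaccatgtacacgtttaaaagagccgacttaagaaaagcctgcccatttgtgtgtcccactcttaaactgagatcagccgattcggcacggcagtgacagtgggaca
The shared ones belong to Gpx8, a glutathione peroxidase of the endoplasmic reticulum (91 wild-type and 37 knockout fragments), Prdm11, a PR domain gene (34 and 18), and Pgk1, a glycolytic enzyme on the X chromosome (31 and 28). Those of wild type alone belong to Pdk2, a kinase that inhibits pyruvate dehydrogenase (35 fragments), Sfxn5, a mitochondrial carrier (30), and Rin1, a Ras effector (29). The knockout one belongs to Dclre1a, a DNA crosslink repair nuclease (17). The full PEG3 motif, read as AGTNNC, a gap of 3 bases and TGGCT, was found in 0 of the 30 RefSeq windows of 300 bases under any peak, and in 0.484% of all 32851 windows. TGGCT alone was in 15 of the 30 (50%, against 63.4% of all), and the GC box in 18 (60%, against 35.7% of all and 46.2% of protein-coding windows). A TATA box (TATAAA) was in 0 of the 30 and in 13.6% of all. The YY1 core GCCATNTT was in 1, the one of Ubxn7, and the cyclic AMP response element TGACGTCA in 0. These windows held a median of 20 CG dinucleotides, against 7 in all windows and 13 in those of protein-coding genes. The windows are of 24 genes, some with several starts that overlap, so they are not independent. A match describes letters only, and a window without one says nothing about where the protein binds.

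Of the wild-type peaks 62 of 152 were shared (40.8%, 32.9% to 49.0%), and of the knockout peaks 65 of 163 (39.9%, 32.3% to 47.8%). The shared wild-type peaks had a median of 32 fragments and a height of 14.96, and the 90 of wild type alone a median of 21 fragments and a height of 9.81 (8.88 to 10.3). Widths were 229 bp (164 to 353) and 160.5 bp (144 to 183) in the same order. In the median the peaks of wild type alone were thus lower than the shared ones, and narrower with overlapping intervals. The part of the lower depth of the knockout library in this was not tested. Of the 98 peaks of knockout alone, 46 lay close to the highest pileup that can be counted, and these are described apart. Below that limit the 64 shared knockout peaks had a median height of 12.1 (9.42 to 16.5) and the 52 of knockout alone one of 18.3 (10.6 to 30.0), with overlapping intervals.

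The authors' peak calling kept 1 tag per position and strand, so at most 208 fragments can cover a base in wild type and 198 in knockout, which is 2 times the fragment length used. Peaks at 80% or more of this limit numbered 1 in wild type and 47 in knockout (28.8% of its list, 22.02% to 36.4%). In knockout the lowest peak past the threshold had 162 fragments (81.8% of the limit) and the highest one below it, in Cldn34d, 138 (69.7%). In wild type the only peak past it had 204 fragments (98.1%) and the next 126 (60.6%). The wild-type one, at chr17:4626162-4626598, was shared and stood at exactly 198 fragments in knockout. The other 46 were listed in knockout alone, 17 of them at exactly 198.

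These 46 peaks lay in 11 places, and 38 of them fell in 3 clusters. The stretch chr9:3000323-3038234, near the start of the chromosome and 495 bp from the microRNA gene Mir101c at its nearest, held 27. A stretch at chr2:98662287-98667287 held 6, and one at chr14:19415747-19418885 held 5. The 8 others stood alone, among them 1 in Chl1, which encodes a neural cell adhesion molecule, and 1 at 910 bp from Wls, which encodes the carrier that Wnt proteins need for secretion. The authors' fold over input was 1.5 to 2.32 at all 46. Behind them the input background was 49.9 to 74.8 fragments per 10000000 input tags, against a median of 1.26 behind the peaks of wild type alone. No wild-type PEG3 peak and no H3K9me3 peak of either genotype lay in these spans. Of the 47 knockout peaks near the limit, 31 had an input background that was itself at 80% or more of the limit, and 4 had one at the limit. The input was scaled by 0.642 in knockout and by 0.880 in wild type. A base at the limit in both immunoprecipitate and input would therefore have a fold of 1.55 and a −log10 p of 8.65 in knockout, where the lowest listed value was 6.48. In wild type it would have a fold of 1.14 and a −log10 p of 1.49, where the lowest listed value was 6.00. Whether these sites differed between the cells was not tested, nor was the part of the input scaling in their listing in knockout alone. Their heights were not compared with other peaks.

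**Figure D1:**
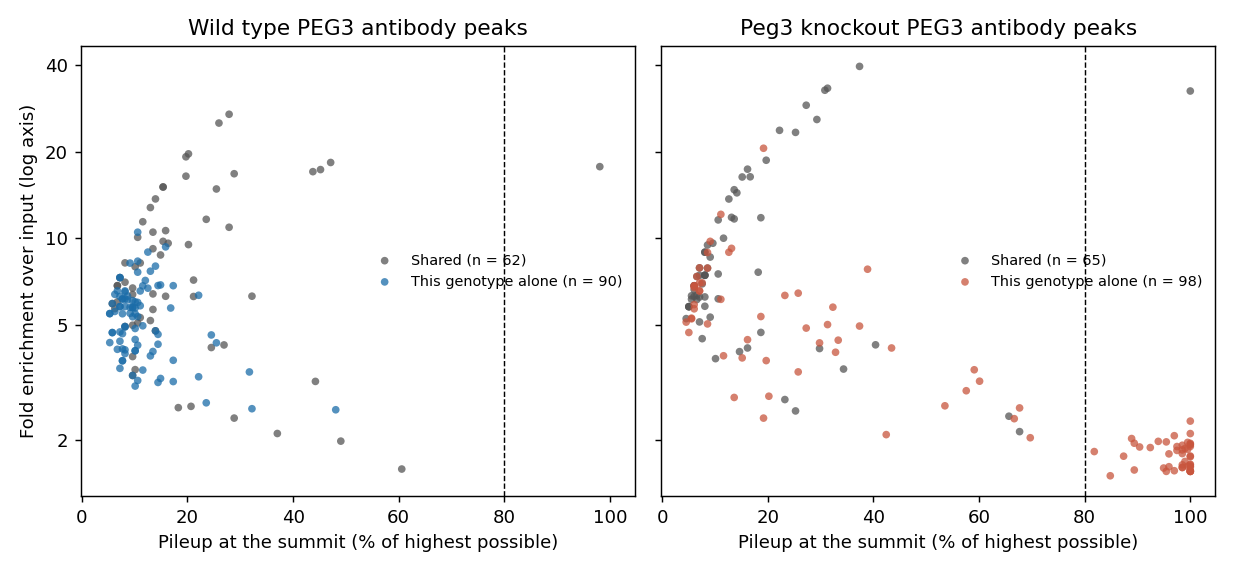
Pileup at the summit as a percentage of the highest possible (x axis) against the authors' fold enrichment over input (y axis, log scale), 1 point per peak, in wild type (left) and knockout (right). The dashed line marks 80%. In knockout 46 peaks listed there alone gather at 81.8% to 100% of the limit with folds of 1.5 to 2.32, and in wild type 1 shared peak lies past the line.

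Below the limit 52 peaks were listed in knockout alone, with a median of 31 fragments and a width of 121.5 bp (107 to 164). The 64 shared knockout peaks below the limit made 55.2% (45.7% to 64.4%) of the 116 there. The input background behind the 52 was 3.68 (0.756 to 6.04), and 0.711 behind the shared knockout peaks. The highest of them lay in Cldn34d, a claudin family gene on the X chromosome (138 fragments, 2.03-fold), and in the ribosomal RNA sequence Rn18s-rs5 on chromosome 17 (134 and 132 fragments, 2.58-fold and 2.37-fold). Next came Cdk8, the kinase of the Mediator complex (119 fragments, 3.19-fold), a site near a predicted gene at chr6:3201459-3201559 (117, 3.50-fold) and one with no gene within 50 kb at chr3:5860386-5860784 (114, 2.96-fold). They were followed by Lars2, the mitochondrial leucyl-tRNA synthetase (106 fragments, 2.62-fold), and a site 7390 bp from Tra2a, a splicing regulator (86 fragments, 4.16-fold). Of the rest of the 15 highest, 1 lay near Rn18s-rs5 (84 fragments), 2 in a predicted gene at chr13:74529609-74529735 (77) and chr13:74528700-74528801 (66) and 1 in another at chr17:13550696-13550818 (64). The others lay in the microRNA gene Mir6236 (74 fragments), in Gphn, which encodes gephyrin, the scaffold of inhibitory synapses (65), and in Il31ra, the interleukin 31 receptor (62). Behind the 15 highest the input background was 5.29 to 39.7, while behind the 15 highest of wild type alone it was 1.23 to 18.1. The share of this background in their height was not tested.

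**Figure D2:**
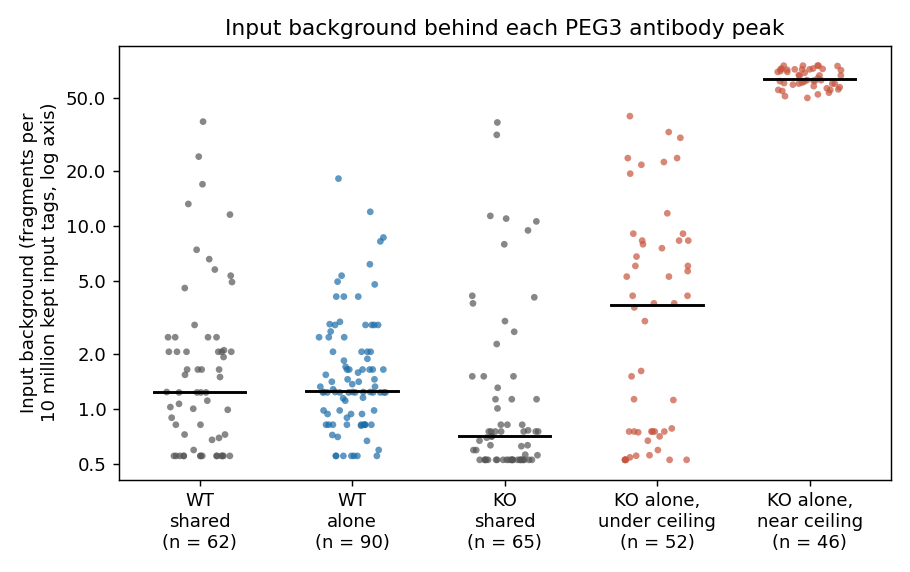
Input background recovered from the authors' fold for each peak (y axis, fragments per 10000000 kept input tags, log scale), by class of peak, with black bars at the medians. The median was 1.24 for shared wild-type peaks and 1.26 for peaks of wild type alone, 0.711 for shared knockout peaks, 3.68 for peaks of knockout alone below the limit and 63.1 for those near it. Values cannot fall below a genome-wide floor of 0.556 in wild type and 0.529 in knockout.

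Among the 90 peaks of wild type alone, the highest were 2 neighbours near the end of chromosome 9 (chr9:124256701-124256823 with 100 fragments and chr9:124257586-124257820 with 67). They were followed by Asmt, the last enzyme of melatonin synthesis, on the X chromosome (66 fragments, 3.44-fold), a site 5066 bp from Aadac, an esterase gene (53), Tmem267 (49) and sites near predicted genes. Of the latter, chr10:3111613-3111731 had 51 fragments, chr17:13591447-13591557 and chr4:118548493-118548655 had 46 each, and chr10:3116157-3116270 and chr17:13587412-13587650 had 36 each. The named genes next in height were Dlgap2, a postsynaptic scaffold (36 fragments, 6.85-fold), Pdk2 (35, 5.73-fold) and Sos2, a Ras activator (31, 3.26-fold). Sites in or near predicted genes at chr16:45353018-45353136 (33) and chrY:90736835-90736951 (31) completed the 15 highest. The 3 of these 90 with a fold under 3 (49 to 100 fragments) each overlapped an H3K9me3 peak of the same genotype, as did 12 of the 90 in all.

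Of the 90 peaks of wild type alone, 31 (34.4%, 24.7% to 45.2%) had their summit within 1 kb of an end of a protein-coding gene. Of the shared wild-type peaks it was 13 of 62 (21.0%, 11.7% to 33.2%), and of the peaks of knockout alone below the limit 5 of 52 (9.62%, 3.20% to 21.0%). The intervals of the first and last of these shares do not overlap, and that of the shared peaks overlaps both. Without peaks in Peg3 or overlapping an H3K9me3 peak, the first and last do overlap. The shares were then 39.47% (28.44% to 51.35%) of 76 in wild type alone and 12.5% (3.51% to 28.99%) of 32 in knockout alone. Peaks near a gene end in wild type alone had 15 to 66 fragments (median 21) and an input background of 1.41, against 1.26 in the whole class. With the strand from the RefSeq promoter table, which holds no start on chromosome 18 here, 27 of 88 (30.7%, 21.3% to 41.4%) lay within 1 kb of a start. The same held for 13 of 60 shared peaks (21.7%, 12.1% to 34.2%) and 3 of 50 of knockout alone below the limit (6%, 1.25% to 16.5%), or 3 of 95 with the peaks near the limit (3.16%, 0.656% to 8.95%). Below the limit the interval of knockout alone overlaps that of the shared peaks. A peak touched the 300 bases around a start in 17, 9 and 1 of these cases. Of all 38 wild-type peaks within 1 kb of a protein-coding start, 27 had their summit upstream of it.

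**Figure D3:**
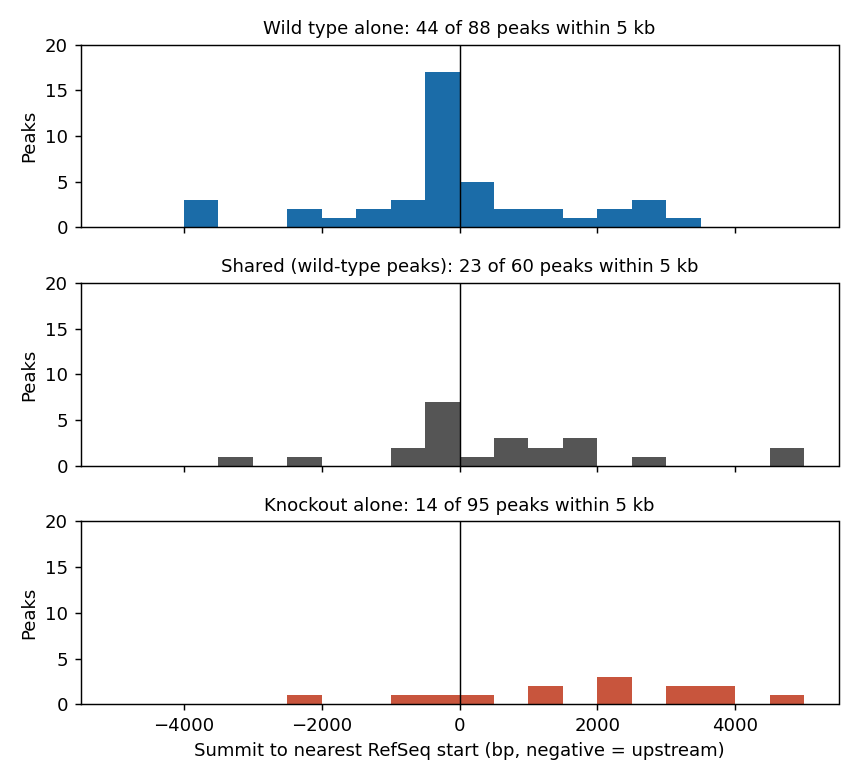
Number of peaks (y axis) by the distance from the summit to the nearest RefSeq start (x axis, bp in bins of 500, negative upstream), for peaks of wild type alone, shared peaks and peaks of knockout alone, without chromosome 18 and with the peaks near the limit. Within 5 kb lie 44 of 88, 23 of 60 and 14 of 95 peaks, and the tallest bin of wild type alone is the one just upstream of the start.

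Several of the genes with a peak of wild type alone at their end act on chromatin and transcription. They are Chd3, Mta3 and Mbd2, subunits of the NuRD deacetylase complex, Epc1, of the NuA4 acetyltransferase complex, Msl3, of the MSL acetyltransferase complex, and Rsf1, of a nucleosome spacing complex. Mbd2 also had a shared peak at the same end (29 wild-type and 21 knockout fragments). Tbl1xr1, a subunit of corepressor complexes, had 2 such peaks, 169 bp before a start (17 fragments) and 134 bp after it (15 fragments). Pds5a, a regulator of cohesin, had 25 fragments at 196 bp before the start, and Epc1, the highest of this group, 30 fragments at 31 bp from its end. Tcf12, a helix-loop-helix factor (18 fragments, 104 bp after the start), and Lmo4, a LIM-only cofactor (27 fragments, 813 bp before it), are regulators of transcription too. Signalling genes were Adam10, the sheddase of Notch and other membrane proteins (21 fragments, 258 bp after the start), S1pr1, the sphingosine 1-phosphate receptor (21), Efna4, an ephrin (16), Adgrl1, the latrophilin 1 receptor (16), Brsk1, a neuronal kinase (15), and Rin1 (29, 119 bp before the start). Protein turnover was represented by Znrf1 (26 fragments), Fbxl14 (24), Spsb2 (20) and Ubxn7 (16), which encode ubiquitin ligases or their partners. The summit counted for Fbxl14 lay inside Wnt5b, 497 bp from an end of Fbxl14, so this peak belongs to Wnt5b by the rule for names. The rest were Tob2, an antiproliferative gene (28 fragments, 81 bp before the start), Cdk1, the mitotic kinase (22), and Anks6, a protein of the primary cilium (22). To these come Cep44, a centrosomal gene (21, also 179 bp before the start of Fbxo8), Dera, an enzyme of deoxyribose breakdown (19), Arl8b, a lysosomal GTPase (17), Plxdc2 (16), Pdk2, Sfxn5 and Asmt. The grouping by function was made after the names were seen and was given no test.

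Of the 6 peaks of knockout alone at a gene end, the one near Wls was near the limit and the one in Lars2 had 106 fragments over an input background of 23.4. The 4 others, at Peg3 (15 fragments, 362 bp from its end), Csmd3 (12), Hivep1, a zinc finger gene (10), and Dclre1a with its neighbour Nhlrc2 (17, 7 bp from an end), had an input background of 0.711 to 1.51, within the range of 0.556 to 8.64 at the gene-end peaks of wild type alone.

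At the 62 shared pairs the heights of both genotypes ran together, with Pearson's r of 0.814 and Spearman's rho of 0.767 on the log2 scale. This is a description across peaks that share their 2 libraries. Summits lay a median of 24.5 bp apart, within 50 bp at 41 of 62 pairs. The median ratio was 0.939 (0.830 to 1.19) and the ratios ran from 0.362 to 1.91. The interval lay wholly below 1 at 8 of 62 pairs (12.9%) and wholly above 1 at 10 (16.1%). Taken by the authors' fold the median ratio was 1.17 (1.03 to 1.29), while the ratio of the input backgrounds had a median of 0.743 (0.612 to 0.918), so the direction of the median turned with the measure. The background has a genome-wide floor of 0.556 in wild type and 0.529 in knockout. Where both genotypes stand at it, as at several pairs in Peg3, the background ratio of 0.952 does not measure the input at the site.

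Most of the 13 shared peaks at gene ends had a lower height in knockout, as did 22 of the 38 pairs away from gene ends and from Peg3. Of the 13, 11 had a ratio below 1, 4 had an interval wholly below 1 and 0 one wholly above, and their median was 0.667 (0.512 to 0.925). Hexim1, an inhibitor of the elongation factor P-TEFb, had 98 fragments in wild type and 50 in knockout, heights of 45.8 and 29.4 and a ratio of 0.643 (0.448 to 0.912). At Gpx8, whose start lies inside Cdc20b, the heights were 42.5 and 21.8 and the ratio 0.512 (0.340 to 0.758). Ddah2, an enzyme that breaks down methylated arginines, had 58 and 23 fragments (0.4995, 0.294 to 0.822), and Plekhh3 44 and 16 (0.458, 0.241 to 0.828). The intervals of the other 9 included 1. Among them Sufu, the suppressor of Hedgehog signalling, had 32 and 16 fragments (0.630), Prdm11 34 and 18 (0.667), and Sephs1, of the selenophosphate synthetase family, 23 and 12 (0.657). Wwc2, a regulator of the Hippo pathway, had 28 and 17 (0.765), the predicted gene at chr14:13917863-13918038 21 and 14 (0.840), Mbd2 29 and 21 (0.912), and Dazap2 49 and 36 (0.925). The ratio was 1.01 at the zinc finger gene Zfp629 (20 and 16 fragments), and 1.14 at Pgk1 (31 and 28), the highest ratio of the 13. Beside this, the knockout input background at the 13 was the lower one, by a median ratio of 0.482 (0.343 to 0.679). The fold therefore gave a median ratio of 1.25 (0.692 to 1.40), the other direction, and 7 of the 13 were higher in knockout by it. The part of the input in the lower heights was not tested. The peaks were also narrower in knockout, 257 bp against 445 bp in the median, with 10 of 13 narrower.

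The peaks inside Peg3 went the other way in value. The gene (chromosome 7) held 11 of the shared pairs, 9 of them with a ratio above 1, and their median was 1.20 (0.8997 to 1.32). The pairs are not independent, since the knockout peak at chr7:6725440-6725776 is the partner in 2 of them (1.17 and 1.26). A wild-type peak with several knockout partners took the highest. No interval of a single pair excluded 1. The widest peak of each list lay there, 4250 bp with 58 fragments in wild type and 4339 bp with 61 in knockout (ratio 1.32, 0.909 to 1.93). The summits of this pair lay 3330 bp apart, so its 2 heights were not taken at the same site. Other pairs in the gene had summit shifts of −455, −259 and 300 bp. The pair at chr7:6712658-6712781 had 32 fragments in either library (1.26, 0.747 to 2.12) and the pair at chr7:6716043-6716167 had 27 and 30 (1.40, 0.804 to 2.45). The 8 others had 12 to 21 fragments in wild type and 10 to 19 in knockout. Wild type alone had 2 further peaks in the gene, with 11 and 15 fragments, and knockout alone 7, with 9 to 22. The targeted gene thus kept its antibody peaks in knockout, 19 against 13 in wild type, and they do not serve as a check of the labels. Peaks show DNA at the locus and not whether the protein was made. Just outside, in the neighbouring imprinted gene Usp29, each genotype had 1 peak that was not shared, with 13 fragments at chr7:6732106-6732214 in wild type and 14 at chr7:6732593-6732691 in knockout.

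**Figure D4:**
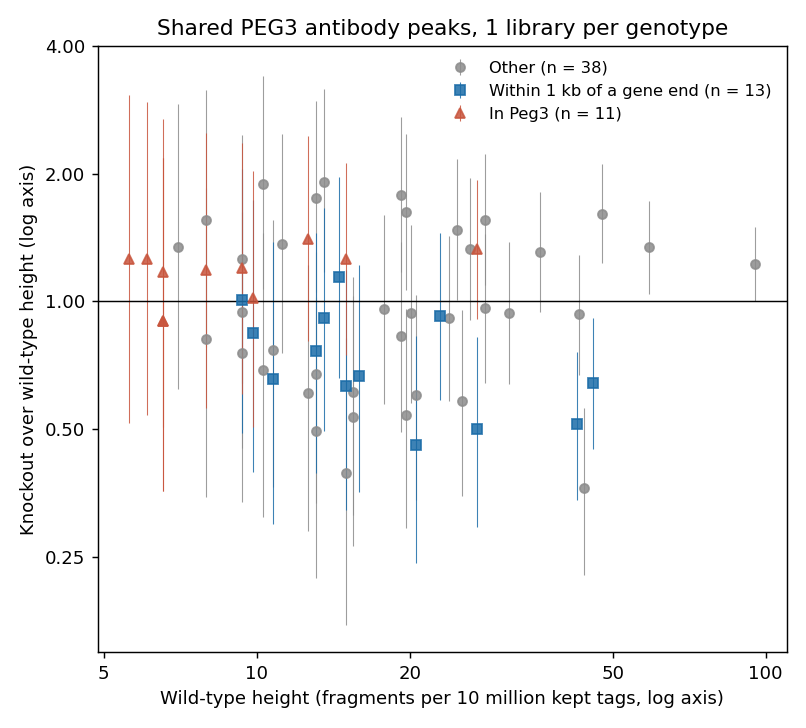
Knockout over wild-type height of the 62 shared pairs (y axis, log scale, with exact 95% intervals for counting error) against the wild-type height (x axis, fragments per 10000000 kept tags, log scale). Pairs within 1 kb of a gene end have a median ratio of 0.667 and lie below 1 in 11 of 13 cases, and pairs in Peg3 have a median of 1.20 and lie above 1 in 9 of 11.

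The other 38 pairs, away from gene ends and from Peg3, had a median ratio of 0.942 (0.767 to 1.33). The interval lay below 1 at 4 of them. Chd9, a chromatin remodeller, had heights of 43.9 and 15.9 (94 and 27 fragments, ratio 0.362, 0.227 to 0.560), the lowest ratio of all pairs. The others were a predicted gene at chr13:34537084-34537436 (32 and 10 fragments, 0.394), Zswim6 (42 and 18, 0.540) and the immunoglobulin heavy chain locus Igh (54 and 25, 0.583). All 10 pairs with an interval above 1 were among these 38. They included Filip1l, a filamin A interacting gene (102 and 130 fragments, 1.61, 1.23 to 2.10), Dpp9, a dipeptidyl peptidase (53 and 62, 1.47), Ano2, a calcium-activated chloride channel (41 and 58, 1.78), and Cdc27, part of the anaphase-promoting ubiquitin ligase (22 and 33, 1.89). The remaining 6 lay at predicted genes or away from genes, on chromosomes 6, 10, 11, 14 and 17. Among these the pair at chr17:4626162-4626598 was at the limit, so its 1.22 does not measure a difference in height. At Filip1l and at chr11:109011710-109012063 (126 and 134 fragments, 1.34) the fold was 1.58 to 2.41 in either genotype. Of the 15 highest shared peaks below the limit, 5 lay in or near predicted genes and had intervals that included 1. Their ratios were 0.931 at chr13:74530508-74530620 (92 wild-type fragments), 1.31 at chr17:13552613-13553076 (77), 0.940 at chr17:13590545-13590669 (67), 0.966 at chr10:3113772-3113896 (60) and 1.33 at chr17:13552315-13552422 (56).

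Wide and narrow peaks differed in their ratios. The 31 shared wild-type peaks of 229 bp or more had a median ratio of 0.675 (0.606 to 0.945), with 23 below 1, and the 31 narrower ones a median of 1.26 (0.937 to 1.40), with 19 above 1. Across the 62 pairs the ratio fell with the wild-type width (r of −0.510 and rho of −0.610 on the log2 scale, a description without a test). The width comes from the same library as the denominator of the ratio, and the part of that in this relation was not tested. The 20 wide peaks that were not near a gene end had a median of 0.727 (0.601 to 1.19). By the fold the wide peaks had a median of 1.03 (0.897 to 1.29) and the narrow ones 1.22 (1.13 to 1.41). The widest after Peg3 lay in Topaz1, a germ cell gene, 2295 bp with 41 fragments in wild type and 2354 bp with 27 in knockout. Those of 1287 bp at Pdk2 and 1047 bp in Msl1, a scaffold of the MSL complex, were among the 5 widest in wild type. The Msl1 peak was shared (28 and 15 fragments) and the Pdk2 peak had no partner in knockout. Over all peaks the median width was 173.5 bp (155 to 194) in wild type and 155 bp (137 to 175) in knockout. Below the limit it was 172 bp (146 to 194) and 166 bp (131 to 200).

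**Figure D5:**
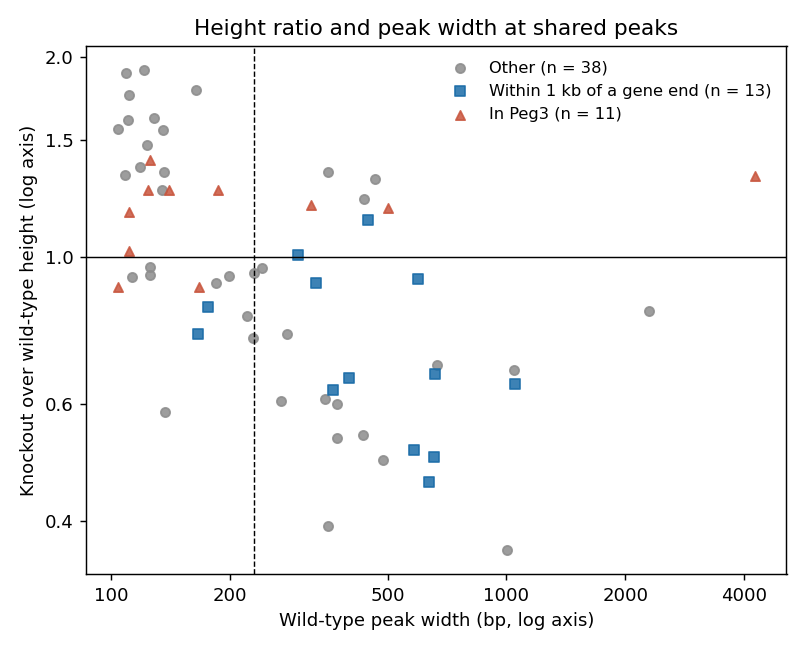
Knockout over wild-type height of the 62 shared pairs (y axis, log scale) against the width of the wild-type peak (x axis, bp, log scale). The dashed line is the median width of 229 bp, left of which 19 of 31 pairs lie above 1 and from which on 23 of 31 lie below 1.

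The genes with a peak within 10 kb were set against lists of pathways and complexes. Of 21900 protein-coding genes with a position, 138 (0.630%) had a wild-type summit that near and 76 (0.347%) a knockout one, 51 of them both. Of 39 chromatin regulators 5 had one in wild type and 3 in knockout. Chd9 and Msl1 were in both. Chd3, Kmt2d, a histone H3 lysine 4 methyltransferase (24 fragments), and Msl3 (22) had one in wild type alone, and Aebp2, a Polycomb cofactor, had 3 in knockout alone (12 to 17 fragments). Of 20 receptors and kinases of other signalling pathways 5 had a wild-type peak and 0 a knockout peak. These were Rara, the retinoic acid receptor alpha (26 fragments), Npffr1, a neuropeptide receptor (29), Il1r1, the interleukin 1 receptor (22), Sos2 and Brsk1. Of 22 genes of the Hedgehog, Wnt and TGF-beta pathways, the same 2 had peaks in both lists, Sufu and Smo, the Hedgehog transducer. In Smo the shared peak had 38 and 29 fragments and a second knockout peak 25. Of 20 cell cycle genes, Cdc27 and Cdc20b had peaks in both lists and Cdk1 in wild type alone. Of 16 multi-copy and repeat-rich genes 1 had a wild-type peak, Igh, and 2 a knockout peak, Igh and the homeobox gene Duxf3 (30 fragments). Of 16 genes of the transcription machinery Hexim1 had one in both, and Hexim2 lies within 10 kb of the same peak. Of 45 imprinted genes 4 had a wild-type peak and 3 a knockout peak, which were Peg3, Peg3os and Usp29 in both, around the same locus, and H19 in wild type alone (27 fragments, 2409 bp away). Of 8 genes recalled as PEG3 targets from earlier work, 4 had a wild-type peak (H19, Msl1, Msl3 and Usp29) and 2 a knockout peak (Msl1 and Usp29). These lists are short and were chosen with earlier results of these data known. Their counts are therefore a description and do not measure enrichment over the shares of all genes.

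Peaks listed with the H3K9me3 antibody of the same genotype overlapped 11 of the 62 shared wild-type peaks. Of the 11, 1 is the pair at the limit. At the 10 others the median ratio was 1.14 (0.931 to 1.47), with 5 above 1 and 5 below, and 2 intervals wholly above 1. At the 51 pairs without such an overlap it was 0.8997 (0.756 to 1.14). The wild-type peaks of the 10 had a median of 57 fragments, and those of the 51 one of 28.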

How the data were processed

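Immunoprecipitated and input DNA of mouse embryonic fibroblasts was sequenced in 8 samples, and the 2 peak tables of the PEG3 antibody were used here. The submitters' processing notes name Bowtie2, SAMtools and the mm10 build. Peaks were called by the authors with MACS2 (2.2.6), with q at most 0.05, in each library against the input of its genotype, per the file headers, with 1 tag kept per position, tags of 100 bp and a fragment length of 104 bp (wild type) or 99 bp (knockout). Whichever of immunoprecipitate and input was larger was scaled to the other. The deposited values are the pileup signal at the summit, the fold enrichment over local background with 1 added to both, and −log10 p-values and q-values. The deposited tables lost the names of the last pair of columns, which were identified from their values.

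From these, heights (pileup divided by kept tags), their ratios with exact conditional intervals, and the input background behind each fold were computed. This background is the local value used in peak calling and not a count of input fragments at the summit. Its lowest value is the fragment length over the genome size used. A peak with several partners was paired with the highest. Gene positions and starts came from RefSeq tables (GRCm38.p6). The gene table gives no strand and the promoter table no start on chromosome 18, so gene ends are either end. Peaks were named by the gene around the summit or the nearest within 50 kb, predicted genes by position. The rule for names took the 15 highest peaks below the limit of each class, pairs whose interval excludes 1, peaks within 1 kb of a gene end, the 5 widest, clusters near the limit and list genes within 10 kb. The members and lists were chosen with earlier results of these data known. The functions for overlaps and intervals were tested on simulated data. The software was matplotlib 3.10.9, SciPy 1.17.1, pandas 2.3.3 and NumPy 2.4.6 under Python 3.11.15. Alternatives are given in the closing section.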

Additional observations from a re-analysis of the deposited data

How the results depend on the processing

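Precision is limited by counting error in 2 immunoprecipitates and 2 inputs, and no library could be left out. No paired analysis was possible because each genotype has 1 library. Of 75 alternative values of the summary results, 64 stayed within the interval of the value reported, or within 1.5 times for counts, 9 moved beyond it and 2 turned direction. When 50% of both peaks had to overlap, the shared part fell to 26.3% in wild type and 24.5% in knockout. The knockout share rose to 49.7% with a gap of up to 1000 bp, to 55.2% below the limit and to 56.0% with peaks merged within 10 kb. Within 5 kb of a gene end lay 48.0% of the wild-type peaks, 23.9% of the knockout peaks and 55.6% of those of wild type alone, and with all genes 19.02% of the knockout peaks within 1 kb. The height ratio turned with the fold at shared pairs near gene ends (1.25) and at wide peaks (1.03), and among the 18 pairs whose interval excludes 1 it turned at Hexim1 (1.27). The cause was not tested. Divided by fragment length, 16 of these 18 intervals still excluded 1, and those of Igh (1.002) and Zswim6 (1.007) ended just above it. Without the Peg3 gene the median ratio of shared pairs was 0.914 (0.756 to 0.966), an interval below 1. The fold has no counting interval here, so the counts of lower and higher pairs were not run with it. The RefSeq starts, the subsets of pairs by gene end and width, and the single pairs were added after seeing the data.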

Other observations

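NuRD, the nucleosome remodelling and deacetylase complex, joins a chromatin remodelling ATPase to histone deacetylases. Of 14 genes for its subunits, a list made after the peak names were seen, 4 had a wild-type PEG3 antibody peak within 10 kb and 1 a knockout one. The 3 of wild type alone were Chd3 (17 fragments), Mta2 (17) and Mta3 (17). Mbd2 had 2 wild-type peaks, 1 of 15 fragments that was not shared and 1 of 29 that had 21 in knockout. The share of all protein-coding genes was 0.630% in wild type, and the list was given no test because it was chosen from those names.

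Pairs whose outer edges lay within 10 bp of each other in both libraries, a property also chosen after seeing the data, numbered 12. Their median ratio was 1.44 (1.02 to 1.62), with 10 above 1, and without the pair at the limit 1.47 (0.931 to 1.75), while the 50 other pairs had a median of 0.906 (0.756 to 0.966). The 12 were narrow, with a median of 122 bp in wild type, and among the 10 outside Peg3 the exceptions below 1 were Hexim1 (0.643) and 1 other. By the fold all 12 were higher in knockout, with a median ratio of 1.44 (1.19 to 1.83).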
